A study of Drosophila melanogaster with 14 samples.

Results

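The mdg1-group elements are LTR retrotransposons of the *Drosophila* genome, followed here under 7 names: 412, blood, mdg1, Stalker, Stalker2, Stalker3T and Stalker4. They were taken from the TE family column of 14 deposited lists of insertions that the reference genome (dm6) lacks, as every record named 412, mdg1 or blood or with a name that begins with Stalker, and Stalker3T entered by that last condition. They made up 1194 of 20426 records, and 292 of 5277 loci once records of the same family within 500 bp of each other were joined over all libraries. A record is an insertion called in a library, and a locus is a place called in at least 1 library.

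LTR retrotransposons are copied through an RNA intermediate, which is reverse transcribed and integrated elsewhere in the genome, and their gag and pol genes lie between identical terminal repeats. The follicle cells that surround the oocyte silence many of these elements with Piwi, a nuclear protein guided by piRNAs, and much of their piRNA comes from flamenco, an X-linked locus filled with element fragments. An insertion carried by the whole strain should be listed in many libraries, whereas an insertion that arose recently should be listed in few.

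All libraries were genomic DNA of the same line, which carries tj-GAL4, tubP-GAL80[ts] and sh-piwi in a w background and in which a hairpin against *piwi* is expressed under the follicle-cell driver tj-GAL4 once the GAL80[ts] repressor is inactivated by warming, so that the control pool carried the same transgenes. The tested libraries were 12 single adult piwi-sKD flies and 1 piwi-sKD pool, whose labels give 25°C over the last 5 days, and the control was 1 no-KD pool of embryos aged 3 to 17 h kept at 20°C. The piwi-sKD pool is labelled as adult fly, whereas the methods describe embryos of a second generation. The study describes the single flies as of that generation too, in which case the knockdown was in their ancestors and not in the flies sequenced. Pools were read at 100 nt and flies at 125 nt, at different sequencing sites, so that individual, read length and site cannot be told apart between flies and pools. No single no-KD flies were analysed here.

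The lists held 5096 records in the piwi-sKD pool, 4356 in the no-KD pool and 537 to 1307 in a fly, each with at least 2 supporting reads. With 1 library per pool, tests between the pools set 2 libraries, not 2 conditions, against each other. Supporting reads are not independent molecules, so intervals give counting error alone. Nothing in the labels says whether the 12 flies share parents, so p-values over flies measure the spread between these flies.

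The element 412 was the most abundant of the group in single flies. The 12 flies listed 15, 20, 31, 30, 33, 23, 19, 13, 17, 14, 17 and 20 records of 412, with a mean of 21.0 ± 6.85 (SD, n = 12), which put it in place 13 among all families. Every fly had more records of 412 than of blood, which averaged 9.92 ± 3.78 (SD, n = 12) with a lowest, median and highest value of 2, 11 and 14. The difference of 11.1 records held in 12 of 12 flies (exact sign-flip test, two-sided, adjusted p = 0.00293 over 6 neighbouring pairs).

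The Stalker elements and mdg1 followed at lower levels. Stalker2 averaged 6.25 ± 3.60 records per fly (range 2 to 13), below blood in 9 flies and equal in 2 (exact sign-flip test, adjusted p = 0.0156). Stalker averaged 5.50 ± 2.11 (range 3 to 10), mdg1 4.58 ± 2.61 (range 1 to 10) and Stalker3T 3.5 ± 1.73 (range 2 to 7, SD, n = 12 each). These neighbours overlapped fly by fly, and the steps from Stalker2 to Stalker, from Stalker to mdg1 and from mdg1 to Stalker3T did not pass (exact sign-flip tests, adjusted p = 0.352, 0.352 and 0.319). Stalker4 was the rarest, with 0 to 3 records in a fly, at least 1 in 8 of 12 flies and a mean of 1.17 ± 1.03. It lay below Stalker3T by 2.33 records (exact sign-flip test, adjusted p = 0.0117). Counted as loci, this last step was 0.75 with an adjusted p of 0.0703, while the step from mdg1 to Stalker3T was 2.58 with an adjusted p of 0.0127 (exact sign-flip tests), because several Stalker3T records of a fly joined into the same locus.

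**Figure D1:**
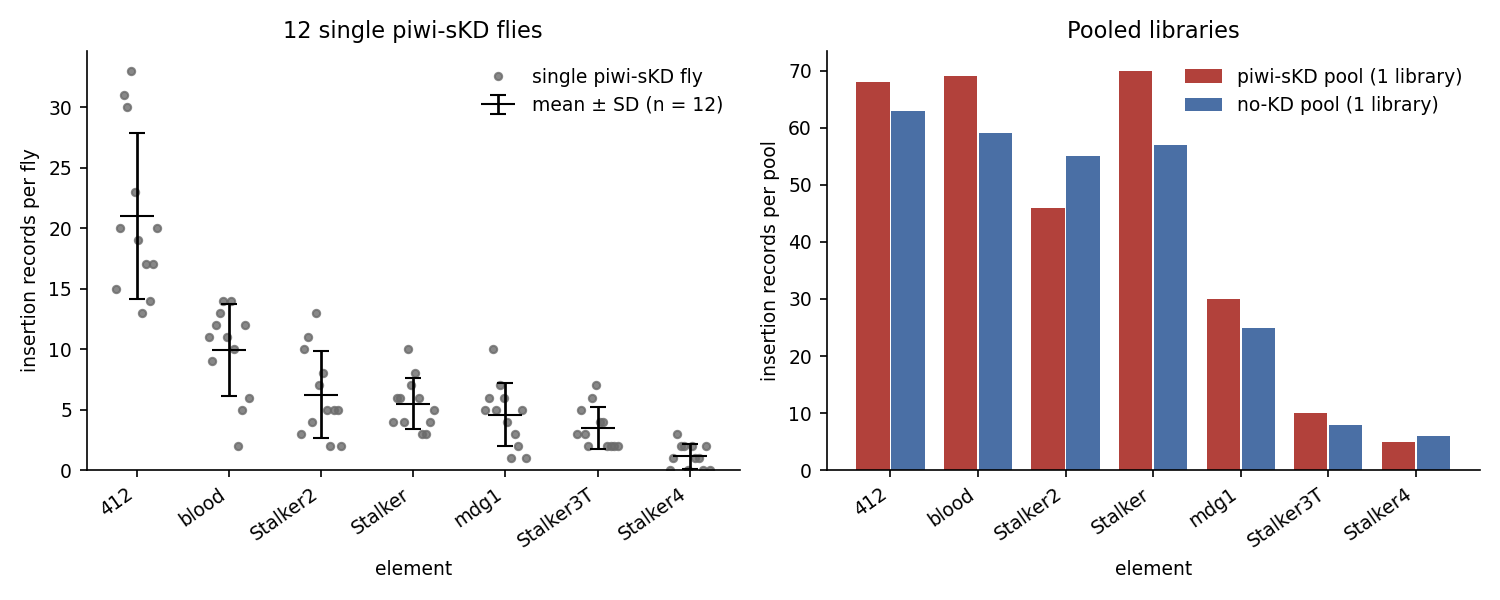
Insertion records of each element, on the left in the 12 single piwi-sKD flies (grey points, with the mean and SD as a bar) and on the right in the pools (piwi-sKD in red, no-KD in blue, 1 library each). The 412 points lie between 13 and 33 and stand above those of blood in every fly, whereas 412, blood and Stalker have 57 to 70 records in each pool.

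In the pools 412 did not stand apart from blood and Stalker. The piwi-sKD pool listed 70 Stalker, 69 blood, 68 of 412, 46 Stalker2, 30 mdg1, 10 Stalker3T and 5 Stalker4 records. The no-KD pool listed 57 Stalker, 59 blood, 63 of 412, 55 Stalker2, 25 mdg1, 8 Stalker3T and 6 Stalker4 records. Stalker thus had 70 records beside 68 of 412 in the piwi-sKD pool and 57 beside 63 in the no-KD pool. As a share of all records of the library, 412 took 1.5% to 3.72% in the flies, with a mean of 2.32% ± 0.582 (SD, n = 12), against 1.33% (Wilson 95% interval 1.05 to 1.69) in the piwi-sKD pool and 1.45% (1.13 to 1.85) in the no-KD pool. All 12 flies lay above both pools, a pattern shown by 14.6% of the 96 families with a record in at least 8 flies. Stalker took 0.372% to 0.931% in the flies, against 1.37% (1.09 to 1.73) in the piwi-sKD pool and 1.31% (1.01 to 1.69) in the no-KD pool. All 12 flies lay below both pools, as in 17.7% of the 96 families.

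The other members overlapped the pools. Stalker3T was above both pools in 11 flies and blood below both in 10, with 2 flies above. Stalker2 was below both in 9 flies and above both in 0, while mdg1 was below both in 8 and above both in 4. Over all 7 names, the share was 5.61% ± 0.791 in the flies (SD, n = 12), against 5.85% (5.24 to 6.53) in the piwi-sKD pool and 6.27% (5.59 to 7.03) in the no-KD pool.

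**Figure D2:**
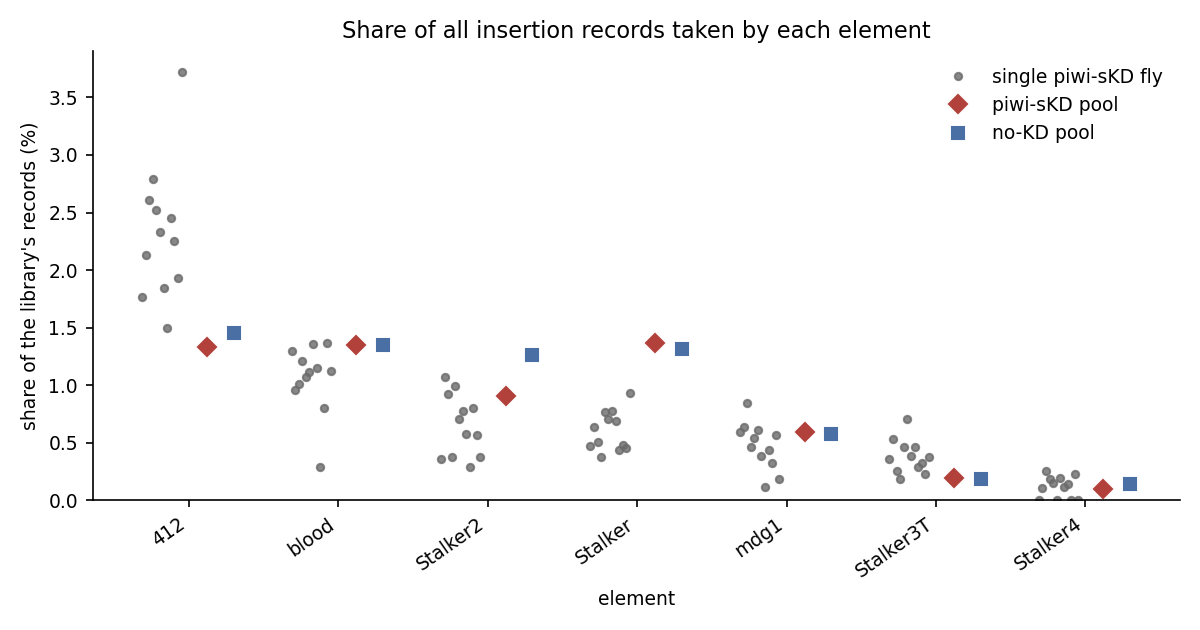
Share of a library's insertion records taken by each element, with 1 grey point per single piwi-sKD fly, a diamond for the piwi-sKD pool and a square for the no-KD pool. For 412 all 12 flies lie above both pools, and for Stalker all 12 lie below both.

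The number of member records in a fly followed the number of all other records in it. Over the 12 flies Pearson's r was 0.935 (permutation p = 1.00e-05, the smallest that the permutations can give, adjusted p = 2.00e-05 over 2 relations) and Spearman's rho was 0.944 (permutation p = 3.00e-05, adjusted p = 3.00e-05). Leaving out the 2 flies with the most extreme number of other records gave an r of 0.954 (10 flies, permutation p = 3.00e-05). Differences between flies in the number of member records therefore went with the size of the whole list, and depth is not given for the flies in the sources used here.

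When the share of a fly's records was compared across the 12 flies and 45 families with a mean of at least 5 records, the patterns most like 412 were those of HMS-Beagle (Spearman's rho = 0.678), 297 (0.629) and mdg3 (0.580). Those most like blood were Juan (0.685), I-element (0.657) and F-element (0.636). The rho was 0.657 for Stalker2 with Cr1a, 0.559 for Stalker with Burdock and 0.531 for mdg1 with hopper. Stalker3T was most like G2 (0.727) and then Stalker (0.713), and Stalker4 most like rover (0.676). These values describe 12 libraries and share the total of each list.

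Joining the records separated elements with mostly shared loci from elements with mostly scattered calls. Of the 54 loci of 412, 29 were found in both pools and at least 1 fly, 7 in both pools and no fly, 2 in the piwi-sKD pool alone, 1 in the no-KD pool alone, 1 in the no-KD pool and a fly, and 14 in flies alone. Of its 40 loci seen in a pool, 36 (90.0%) were seen in both. For blood these were 35 of 43 loci (81.4%) and for mdg1 16 of 21 (76.2%). By contrast, Stalker had 34 of 76 (44.7%) and Stalker2 22 of 51 (43.1%) in both pools, compared with 51.0% for the loci of all other families together.

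In the flies 412 was again recovered most and Stalker least. A fly listed at least 1 record at 44 of 54 loci of 412 (81.5%), 16 of 25 of mdg1 (64.0%), 24 of 46 of blood (52.2%), 26 of 63 of Stalker2 (41.3%) and 20 of 84 of Stalker (23.8%). Stalker3T and Stalker4, with few loci, had 3 of 10 each (30.0%). For the members together the share was 46.6%, against 46.3% for all other families. These shares include loci found in flies alone, which a fly lists by definition. Of the loci in both pools, a fly listed 29 of 36 of 412, 12 of 16 of mdg1 and 21 of 35 of blood. For Stalker2 it was 10 of 22, for Stalker 8 of 34, for Stalker3T 2 of 4 and for Stalker4 1 of 3. All other families had 1222 of 2116. At least 8 flies shared 12 loci of 412, 4 of blood, 4 of Stalker, 2 of Stalker3T, 1 of Stalker2 and 1 of mdg1. Such loci were 8.22% of those of the members together, against 9.27% for all other families.

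**Figure D3:**
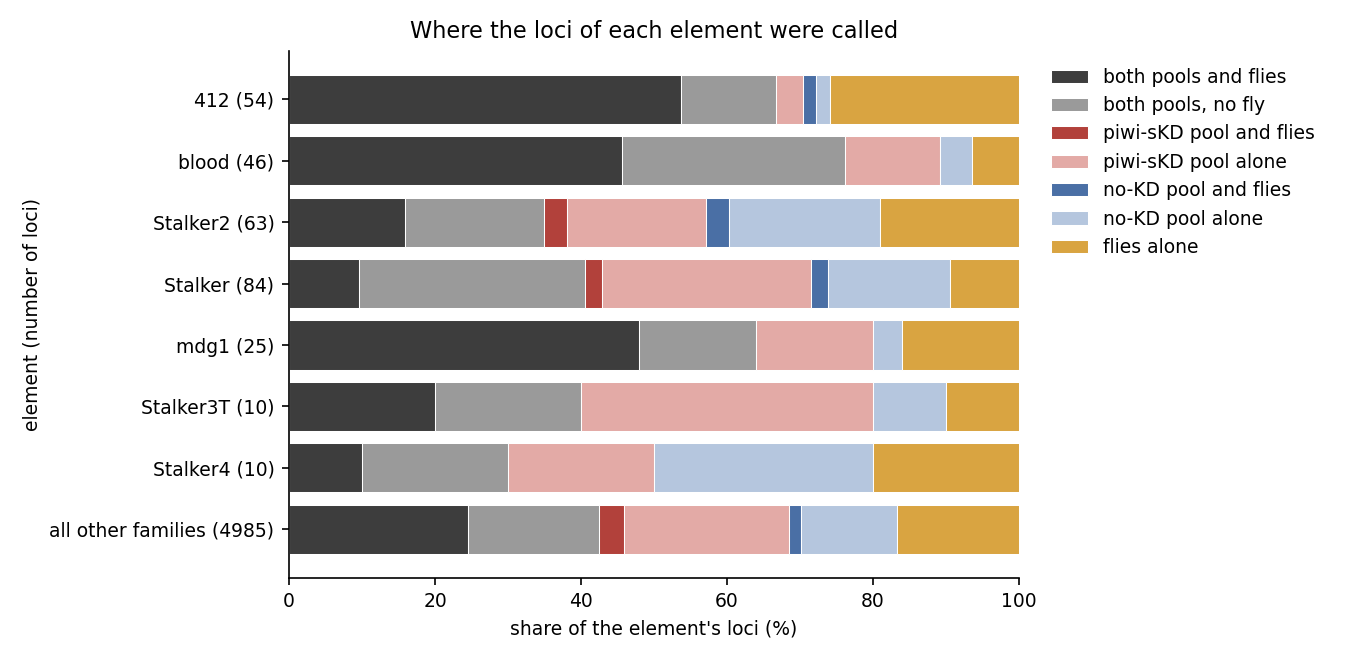
Share of the loci of each element by the libraries in which they were called, with the number of loci in brackets and all other families in the lowest bar. The dark segment, both pools and at least 1 fly, covers 53.7% of the loci of 412, 45.7% of blood and 48.0% of mdg1, but 15.9% of Stalker2 and 9.52% of Stalker.

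The loci held in all 12 flies and both pools numbered 4, with 1 each for 412, blood, Stalker2 and Stalker. All other families had 88 such loci among 4985, against these 4 among 292 for the members. The 412 locus lay on chromosome 3R at 8867223 to 8867450, in the span of pyd, which codes for a scaffold protein of cell junctions. It had 97 piwi-sKD and 65 no-KD reads, and 2 to 13 reads (median 7.0) in the flies. The blood locus lay on 3L at 10993903 to 10994249 in klu, a zinc finger transcription factor gene, with 109 piwi-sKD and 100 no-KD reads and 2 to 11 (median 6.5) in the flies. The Stalker2 locus, on 3R at 31321272 to 31321596 in CG34347, had 42 piwi-sKD and 43 no-KD reads and 2 to 13 (median 5.0) in the flies. The Stalker locus, on 3R at 15158463 to 15158591 in Gyc88E, a guanylyl cyclase gene, had 14 piwi-sKD and 24 no-KD reads and 2 to 5 (median 3.0) in the flies. The gene table gives spans without exons, so it was not determined whether these insertions are exonic or intronic.

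Other widely shared loci were chosen after their values were seen. A 412 locus in pum, which codes for a translational repressor, was on 3R at 9075460 to 9075762, with 47 piwi-sKD and 29 no-KD reads, in 11 flies. A 412 locus in the serotonin receptor gene 5-HT7 was on 3R at 31007763 to 31008222, with 35 piwi-sKD and 22 no-KD reads, in 10 flies. A blood locus in Oamb, an octopamine receptor gene, was on 3R at 20701176 to 20701395, with 102 piwi-sKD and 80 no-KD reads, in 10 flies. The Stalker3T reads sat almost wholly at 2 loci in Myo81F, a myosin gene in the heterochromatin of 3R. At 2270817 to 2271209 there were 232 piwi-sKD and 202 no-KD reads, and at 2254232 to 2254593 there were 61 and 62, each in 11 flies. All Stalker3T records together had 311 piwi-sKD and 273 no-KD reads.

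Gene spans held 36 of 54 loci of 412 (66.7%), 30 of 46 of blood (65.2%), 36 of 59 nuclear loci of Stalker2 (61.0%), 12 of 25 of mdg1 (48.0%) and 35 of 84 of Stalker (41.7%). The share over all other families was 52.0%.

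Both pools listed these loci with similar support. At the 36 loci of 412 in both pools there were 953 piwi-sKD and 746 no-KD reads, a ratio of 1.28, and 25 loci had more reads in the piwi-sKD pool, 6 fewer and 5 as many. The ratio was 1.22 for blood (891 and 730 reads at 35 loci), 1.22 for Stalker (299 and 246 at 34), 1.23 for Stalker2 (289 and 235 at 22) and 1.42 for mdg1 (169 and 119 at 16). All other families gave 1.2 over 2116 loci. These ratios were not corrected for depth, and the study reports a higher sequencing coverage for the piwi-sKD pool than for the no-KD pool. All supporting reads of the 2 lists stood at 1.24, close to the factor of 1.23 by which the deposited no-KD support had been scaled, and the part of depth in the tallies of higher and lower loci was not tested. The loci of 412 found in more flies had more reads in the pools. For 412, the median piwi-sKD support was 4 reads at loci in no fly, 17 at loci in 1 to 3 flies, 25 in 4 to 7 and 37 in 8 to 12, while the no-KD medians were 5, 9, 19 and 33. All other families had piwi-sKD medians of 5, 9.5, 20 and 31. Stalker did not follow this order, with piwi-sKD medians of 4.5, 11, 38 and 14 over 26, 4, 1 and 3 loci. Records of 412 were seldom at the 2-read minimum in the pools, with 8.82% of the piwi-sKD and 14.3% of the no-KD records, against 36.6% and 33.3% for all other families. For Stalker these shares were 41.4% and 38.6%.

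**Figure D4:**
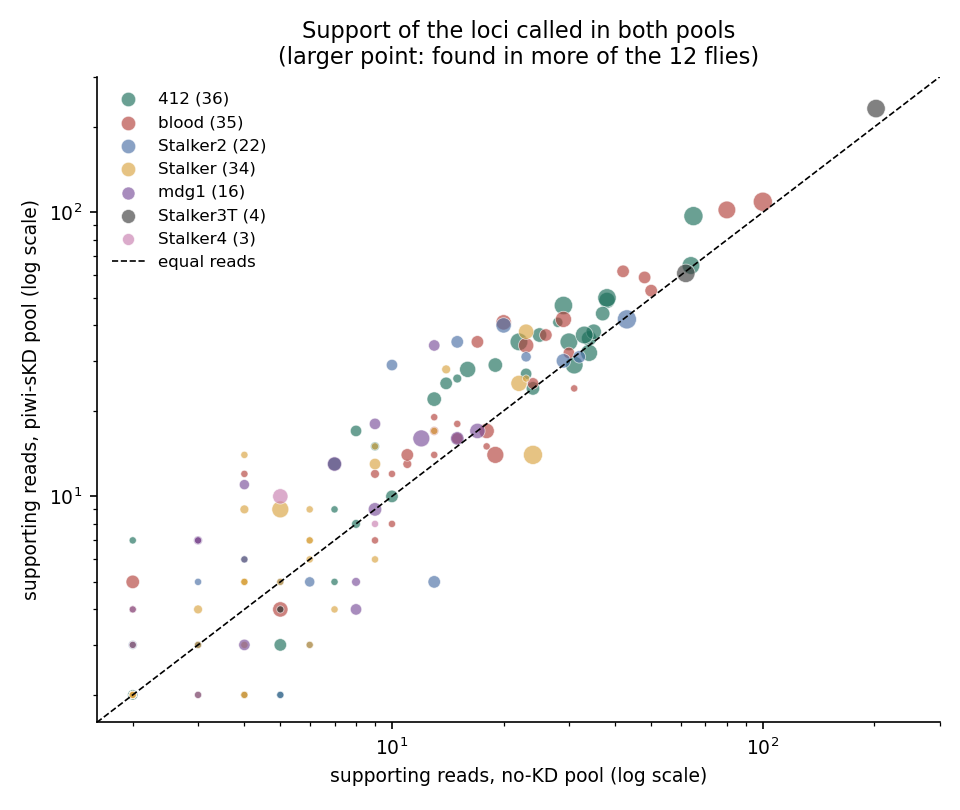
Supporting reads at the loci called in both pools, with the piwi-sKD pool on the vertical and the no-KD pool on the horizontal log axis, 1 point per locus, coloured by element and larger where more flies carry it. Points run along the line of equal reads, with more above than below it for each element except Stalker3T. The uppermost is the Stalker3T locus with 232 piwi-sKD and 202 no-KD reads.

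The question of the pooled experiment was whether insertions specific to piwi-sKD were more frequent for some families. An insertion was specific where the other pool had no record of any family within 20 bp. For 412, 25 insertions were specific to piwi-sKD and 23 to no-KD, a ratio of 1.09 (exact 95% interval 0.592 to 2.0), 36 and 27 of blood (1.33, 0.787 to 2.28), 43 and 32 of Stalker (1.34, 0.831 to 2.19), and 18 and 15 of mdg1 (1.2, 0.571 to 2.56). Stalker2 was the only member with 18 or more specific insertions whose ratio was below 1, with 24 and 30 (0.80, 0.448 to 1.42). Stalker3T had 5 and 1, and Stalker4 had 2 and 3. The members together had 153 and 131, a ratio of 1.17 (0.919 to 1.49), compared with 1.34 (1.27 to 1.42) over all families, again without matching of depth.

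None of the 7 members was called in that comparison (0 of 7, two-sided Fisher's exact test adjusted over 114 families by Benjamini-Hochberg), and the share called over all families was 0%. The lowest adjusted p of any family was 0.945, and 2 families but 0 members had an unadjusted p under 0.05. The lowest among the members was that of Stalker2 (exact p = 0.0711). When only a record of the same family counted as a partner, Stalker2 had 26 and 35 (exact p = 0.0266 before adjustment), and 0 members passed after it. The study reported new insertions of ZAM and gtwin, and the main comparison called neither. ZAM had 10 and 2 specific insertions and gtwin 9 and 2 (Fisher's exact test, adjusted p = 0.945 each). The lack of a call therefore does not show that a member had no new insertions.

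Most specific insertions of 412 had a record of the same element in the other pool close by. A 412 record of the no-KD pool lay within 500 bp for 23 of the 25 piwi-sKD-specific insertions of 412, and a 412 record of the piwi-sKD pool for 20 of the 23 no-KD-specific ones. For blood these were 29 of 36 and 25 of 27, and for mdg1 15 of 18 and 14 of 15. For Stalker, 16 of 43 and 16 of 32 had such a partner, and for Stalker2, 10 of 24 and 15 of 30. With a window of 500 bp, 412 was left with 2 insertions specific to piwi-sKD and 3 specific to no-KD, blood with 6 and 1, mdg1 with 2 and 0, Stalker with 23 and 12, and Stalker2 with 12 and 13. The ratio of piwi-sKD to no-KD over all families was 1.87 at this window, beside 1.92 for Stalker and 0.923 for Stalker2. Shares with a partner of the same element within 500 bp were taken for the members only, without those of other families.

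The loci with the highest support in a pool that the other pool lacked had few reads. For 412 these were a Y locus at 3607368 to 3607384 in ORY with 5 piwi-sKD reads, an X locus at 7057567 to 7057598 in CG12541 with 3 piwi-sKD reads, an X locus at 9934928 to 9935127 with 6 no-KD reads and 5 reads in 1 fly, and a 3R locus at 3613539 with 2 no-KD reads. For blood they were at most 6 reads in the piwi-sKD pool (2R, 336264 to 336502, in DIP-lambda) and 4 in the no-KD pool (X, 23535599). The best supported was a Stalker locus on 3R at 12744679 to 12744866 in lncRNA:CR46238, with 9 piwi-sKD reads. A Stalker2 locus overlapping it, at 12744623 to 12745331, had 31 piwi-sKD and 32 no-KD reads. For mdg1 they were 2 piwi-sKD reads at 2R 4300547 and 3 no-KD reads at Y 959019, and for Stalker2 6 piwi-sKD reads at 2R 18199346 to 18199382 and, in the no-KD pool, 6 reads on the mitochondrial genome at 1963 to 2643, followed by 5 reads at 3R 24979317 to 24979352.

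A second library was then asked for each locus. The piwi-sKD pool and at least 1 fly, without the no-KD pool, shared 0 loci of 412, 2 of Stalker2 and 2 of Stalker, and 0 of every other member. The no-KD pool and at least 1 fly, without the piwi-sKD pool, shared 1 locus of 412, 2 of Stalker2 and 2 of Stalker. Over all families these counts were 174 and 87. No member reached the 5 loci needed for the test, so 0 of 0 members were called, with 0% called among the 12 families tested (Fisher's exact test, lowest adjusted p = 0.519, and 0 families with an unadjusted p under 0.05).

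Only 2 of those loci, 1 in each direction, were found in at least 3 flies. A Stalker locus on 2R at 3655827 to 3656288 had 2 piwi-sKD reads, 0 no-KD reads and 2 to 8 reads in 11 of 12 flies, the flies all listing it at the same base and the pool record lying at the other end of the 461 bp. A Stalker2 locus on 3L at 7366320 to 7366370 in Sh3beta had 0 piwi-sKD reads, 2 no-KD reads and 2 or 3 reads in 4 flies.

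No difference between the pools was detected in the chromosome of the specific insertions either. For the members together, the X had 28 insertions specific to piwi-sKD and 28 to no-KD, 2L 18 and 14, 2R 33 and 25, 3L 32 and 28, 3R 34 and 26, and Y 6 and 8. None of the 6 chromosomes passed (Fisher's exact test, two-sided, lowest adjusted p = 0.995, lowest unadjusted p = 0.423 for Y).

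Along the chromosomes the elements were placed differently. In the 20% of each of the 5 large arms nearest the centromere, taken over the span of all records, lay 61 of 73 arm loci of Stalker (83.6%, Wilson 95% interval 73.4 to 90.3) and 9 of 9 of Stalker3T. For 412 these were 10 of 51 (19.6%, 11 to 32.5), for mdg1 5 of 20 (25.0%, 11.2 to 46.9), for Stalker2 19 of 58 (32.8%, 22.1 to 45.6) and for blood 16 of 44 (36.4%, 23.8 to 51.1). All other families had 58.6% (57.2 to 60). These counts include loci called in 1 library alone. Among loci called in both pools, 18 of Stalker lay near the centromere and 10 farther out, against 952 and 892 for all other families. For Stalker2 these were 11 and 10, for 412 7 and 28, for blood 8 and 26, for mdg1 3 and 10 and for Stalker3T 3 and 0. Flies carried 28.2% of the 124 member loci near the centromere and 68.8% of the 141 farther out, against 40.2% and 61.0% for all other families, a contrast given without a test. For Stalker these shares were 23.0% of 61 and 41.7% of 12 loci, and for 412 60% of 10 and 90.2% of 41. Loci found in flies alone are included here, and a fly lists those by definition.

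Stalker2 had the highest X share of the members, with 24 of 63 loci (38.1%, 27.1 to 50.4), against 15.9% (14.9 to 16.9) of the loci of all other families. The X share was 25.9% (16.1 to 38.9) for 412, 19.6% for blood, 16% for mdg1 and 9.52% for Stalker. The Y held 10 of 84 loci of Stalker (11.9%, 6.60 to 20.5), 5 of 25 of mdg1 (20.0%, 8.86 to 39.1) and 6.46% of all other loci. Stalker2 was also the only member listed on the mitochondrial genome, at 4 loci with at most 2 piwi-sKD reads, at most 6 no-KD reads and 1 record in a fly. These lay in COX1, in ATP6 and COX3, in ND5 and in ND1, genes of oxidative phosphorylation. Mitochondrial loci were 0.782% of the loci of all other families. The study warns that chimeric fragments made during library preparation can be called as insertions. Whether the mitochondrial records are such calls was not tested. Shares per chromosome describe the loci of 14 libraries of the same line and were not tested.

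In the span of lncRNA:flam, the flamenco transcript on X, from 21631891 to 21790731, lay 11 loci of all families, of which 5 were of members. These were 3 of Stalker and 2 of Stalker2, and 412, blood and mdg1 had none. A Stalker locus at 21762903 had 5 piwi-sKD and 4 no-KD reads, a Stalker2 locus at 21640226 to 21640495 had 2 and 2, and neither was in a fly. The others were in a single library with 2 reads each, at 21744624 in the piwi-sKD pool (Stalker), at 21655618 in the no-KD pool (Stalker2) and at 21705128 in a fly (Stalker). These loci were looked up after the values were seen.

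Names of the Stalker elements overlapped on the genome. All 10 loci of Stalker4 had a Stalker locus within 500 bp, whereas 0 of 54 loci of 412 and 0 of 46 of blood had a locus of another member there. In Gyc88E, for example, Stalker4 was listed at 15158489 to 15158515 with 10 piwi-sKD and 5 no-KD reads in 7 flies, inside the Stalker locus found in all 12. Another member lay within 500 bp at 3 of the 10 loci of Stalker3T, 6 of 63 of Stalker2, 18 of 84 of Stalker and 2 of 25 of mdg1. A locus of any other family, member or not, lay there for 35 of 84 of Stalker and 21 of 63 of Stalker2. For mdg1 these were 6 of 25, for blood 8 of 46 and for 412 5 of 54. Beside Stalker2 the most frequent names were BS (11 loci), Rt1a (8) and hopper (6), then Stalker (5). Whether such pairs of records come from the same insertion was not tested, so Stalker4 counts are not taken as independent of those of Stalker.

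The loci seen in flies and in neither pool numbered 44 for the members, or 32.4% of the member loci seen in flies, against 36.2% for all other families. By element they were 14 of 412, 12 of Stalker2, 8 of Stalker, 4 of mdg1, 3 of blood, 2 of Stalker4 and 1 of Stalker3T. At 32 of the 44 loci the highest fly had the minimum of 2 reads. They were shared by at least 2 flies at 10 loci of 412 (22.7% of its loci in flies), 4 of Stalker2, 2 of mdg1, 2 of Stalker4, 1 of Stalker and 1 of blood, or 14.7% of the member loci in flies, against 10.7% in all other families.

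The 412 loci of this kind were listed at nearly the same base in every fly. All 10 that were shared by at least 2 flies spanned at most 2 bp (median 0). The flies' records at the 26 loci of 412 that were also in a pool and in at least 2 flies spanned a median of 103 bp (0 to 630), and 2 of the 26 spanned at most 5 bp. In all other families, 30.2% of the 248 loci in flies alone spanned at most 5 bp, against 7.22% of the 1135 loci in a pool, counting the flies' records only. The most frequent was on X at 303491 in CG3777, in 9 flies with 2 to 4 reads each. The next was on 3R at 30375578 to 30375579, outside genes, in 7 flies with 2 to 5 reads. A locus on X at 551461 in Appl, the fly relative of the amyloid precursor protein gene, was in 4 flies with 2 reads each.

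**Figure D5:**
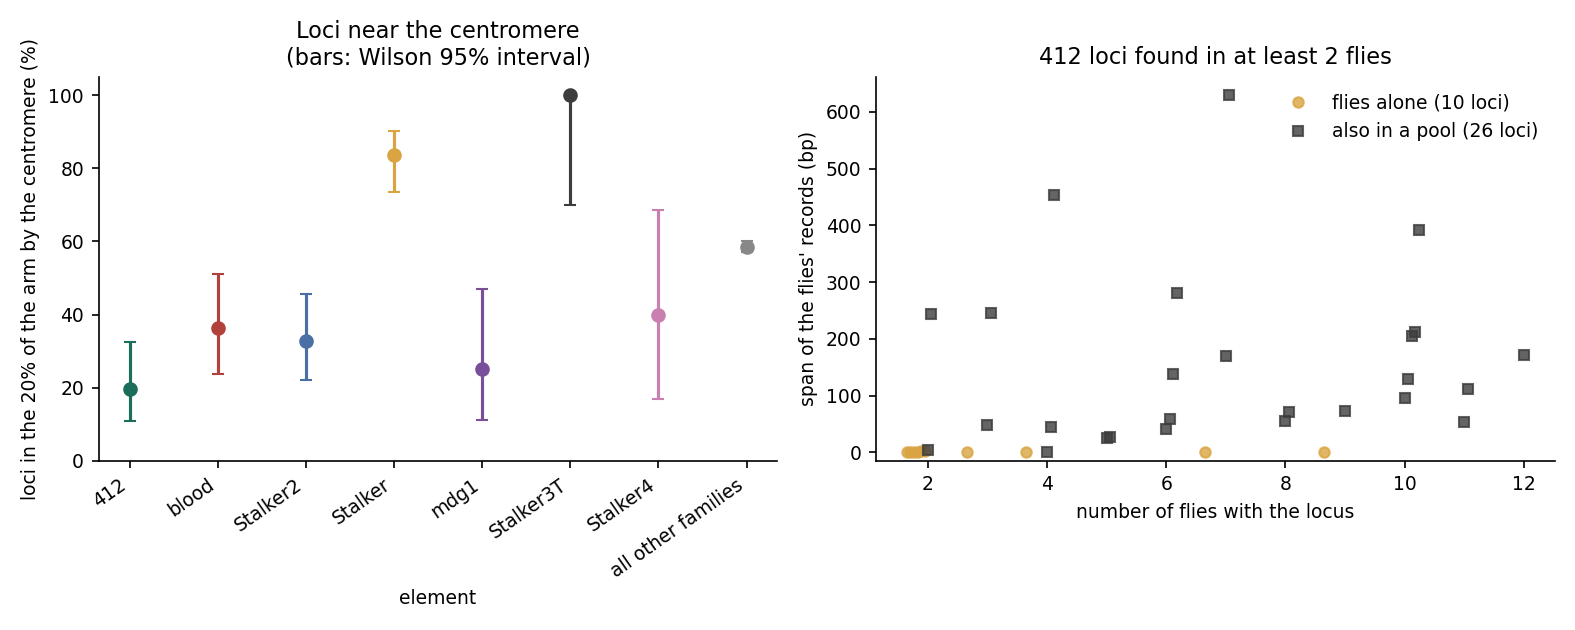
Left, share of the loci on the 5 large arms that lie in the 20% next to the centromere, per element, with Wilson 95% intervals. Right, span in bp of the flies' records at each 412 locus found in at least 2 flies, against the number of flies (points spread sideways to part them), for the 10 loci in flies alone, which stay at or below 2 bp, and the 26 loci also in a pool.

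Of the 14 loci of 412 in flies alone, 6 formed 3 pairs at a similar distance. They were 7455 bp apart in Nop60B (2R, 24177277 and 24184732), 7536 bp in Deaf1 (3L, 19820326 and 19827862) and 7598 bp outside genes (3R, 30375578 and 30383176). In the 3L pair 1 fly and in the 3R pair 2 flies listed both positions, and in the 2R pair none did. For mdg1, 2 of the 4 loci in flies alone lay 6885 bp apart in Teh1 (3R, 9838656 and 9845541), the second with 5 reads in 1 fly and 2 in another. Over loci of every kind, 11.3% of member loci and 10.6% of all others had a neighbour of the same family 4000 to 10000 bp away. Among loci in flies alone, 6 of 14 of 412 and 10 of 44 of the members together were in such a pair. For all other families these were 85 of 835, a contrast given without a test. Whether copies of 412 or mdg1 in the reference lie between these positions was not tested, since no genome sequence was used. These pairs and the span were examined after the values were seen. A further locus in flies alone with at least 5 reads was one of Stalker2 on 2R at 5393804 to 5393894, with 5 reads in 1 fly and 2 in another.

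Within a fly, member records tended to have fewer reads than the others. On the log2 scale of supporting reads, mdg1 lay 0.22 ± 0.21 below all other records of the same fly (SD, n = 12), with a mean of 1.38 against 1.6, and was higher in 1 of 12 flies (difference -0.22, exact sign-flip permutation test, two-sided, adjusted p = 0.0108 over 96 families). The difference was -0.13 for Stalker (adjusted p = 0.0333), -0.17 for Stalker2 (0.0419), -0.25 for Stalker3T (0.0420) and -0.35 for Stalker4 (0.0333, 8 flies, exact permutation test). Differences of -0.10 for 412 (adjusted p = 0.0663, higher in 3 flies) and -0.10 for blood (0.386, higher in 2 flies) did not pass in the same exact permutation test.

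Thus 5 of 7 members were called lower and 0 higher, against 42.7% called lower and 13.5% called higher over all 96 families. Lower support was therefore common among families. With the share of records above 2 reads as the measure, 0 of 7 members passed, against 2.08% of the 96 families called lower and 5.21% called higher. The lowest adjusted p of a member was 0.266 (exact sign-flip test), for Stalker3T, whose share above 2 reads averaged 37.4% over the flies, against 51.5% for the other records. Among records with a partner of the same family in the no-KD pool within 500 bp, 6 members and 88 families could be tested, and 34.1% of the families were called lower and 17.0% higher. Lower support passed there for 412 (-0.12, adjusted p = 0.0400), Stalker (-0.23, 0.0191), Stalker3T (-0.33, 0.0191) and mdg1 (-0.27, 0.0127), and did not pass for Stalker2 (-0.15, 0.0816) and blood (-0.16, 0.151).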

How the data were processed

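Paired-end reads of genomic DNA were mapped to dm6 by the authors, with BWA 0.7.5a-r405 for the pools and 0.7.10-r789 for the flies, and insertions absent from the reference were called with T-lex *de novo*. The deposited support of the piwi-sKD pool and the flies is a read count of at least 2. The deposited support of the no-KD pool is a signal scaled by the authors. It was divided by 1.23, a factor read from the values, which gave whole reads for 100% of records (tolerance 0.01 of a read). No depth matching was applied to the piwi-sKD pool. Coordinates are those of the lists and may be off by 1 base, since their base is not stated. Genes were assigned by their RefSeq spans in the matching assembly, for which no exons were given.

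Families were compared with Fisher's exact test (at least 5 insertions) or an exact sign-flip test over flies, with Benjamini-Hochberg adjustment over all families tested and a threshold of 0.05. Both tests and the joining of loci were tested on simulated data. The members and lists were chosen with earlier results of these data known. Named were all member families, the 3 families most like each, loci in all flies and both pools, the 2 best supported loci per pool that the other lacked (not all of them printed), loci in 1 pool and at least 3 flies, and loci in flies alone with at least 5 reads. Other loci are said to be chosen afterwards. Alternatives were other windows and joining distances, matching within the family, chromosome arms only, at least 3 reads, merged records and another support measure. Python 3.11.15, numpy 2.4.6, pandas 2.3.3, scipy 1.17.1 and matplotlib 3.10.9 were used.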

Additional observations from a re-analysis of the deposited data

How the results depend on the processing

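The number of member loci was 292, and it was 520 with joining at 20 bp and 175 with records of at least 3 reads. It lay within 1.5 times of 292 with joining at 100 or 1000 bp and on chromosome arms alone. The 14 loci of 412 in flies alone became 29 with joining at 20 bp and 5 with at least 3 reads, and the 10 found in at least 2 flies became 3 with at least 3 reads, alternatives chosen after seeing the data. With no record of any family within 500 bp in a pool they were 13 and 9. The count of 5 members with lower support within flies became 0 with the share of records above 2 reads. No member and no chromosome was called between the pools under any of the settings run for it (8 and 6). Of the 8, merging records left the counts of every member as in the main comparison, so that setting adds no check. For loci shared with flies, no member had enough loci to be tested on chromosome arms, with at least 3 reads or with at least 2 flies, so these gave no value. With joining at 20, 100 and 1000 bp, 2, 1 and 1 members had enough such loci, and 0 were called. The count of neighbouring pairs that passed was 3, and 2 to 3 under the alternatives. The correlation of member with other records over flies was 0.938 to 0.959 under its alternatives. No paired analysis was possible because the pools are 1 library each and the flies have no control flies to pair with. Reads at the 2-read minimum, 1 library per pool and the lack of no-KD flies limit what these lists can show about new insertions.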
